A study of Mus musculus with 6 samples.

Results

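Lin28a, Lin28b and 8 genes known as targets of the let-7 microRNAs were examined for chromatin accessibility in mouse nephron progenitor cells. The targets were Hmga2, Hmga1, Igf2bp1, Igf2bp2, Igf2bp3, Igf1r, Trim71 and Arid3a. A region belonged to the set when its midpoint lay in the body of 1 of these 10 genes or within 50 kb of it, with gene spans from RefSeq (GRCm38.p6, the assembly also called mm10). This rule found 33 of the 43523 distinct regions of the count table. The progenitors came from kidneys of the outbred CD1 strain, either from embryos at E14.5 or from newborn pups on the day of birth (P0). Each stage had 3 libraries, each made from 50000 cells that antibodies to the integrin Itga8 had enriched from the pooled kidneys of a litter. Accessibility was measured by ATAC-seq: the Tn5 transposase inserts adapters into open chromatin, and more inserts in a region give a higher count. No genotype or treatment differed between the groups, and the sexes of the pooled animals were not given. In such a mixed isolate, fewer open cells and less opening per cell cannot be told apart.

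Lin28 proteins bind let-7 precursors and block their maturation, and mature let-7 in turn represses Lin28a and Lin28b together with a set of growth genes of the embryo. The loop works as a developmental clock: Lin28 and the targets are high in young embryos, and let-7 rises as tissues mature. In the mouse kidney, Lin28b and let-7 are known to bear on how long new nephrons are formed, since nephron progenitors are used up shortly after birth.

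The let-7 family is recognised by its seed, bases 2 to 8 of the mature strand, which pairs with target transcripts. The 9 distinct mature 5p sequences that the RefSeq table paired with 11 of the 12 let-7 genes (not Mirlet7a-2) are shown because they define the targets, with the seed in capitals:
let-7a-5p: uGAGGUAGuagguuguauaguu
let-7b-5p: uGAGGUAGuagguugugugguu
let-7c-5p: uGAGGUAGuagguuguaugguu
let-7d-5p: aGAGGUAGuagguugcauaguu
let-7e-5p: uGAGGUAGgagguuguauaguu
let-7f-5p: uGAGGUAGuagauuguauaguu
let-7g-5p: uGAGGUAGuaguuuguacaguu
let-7i-5p: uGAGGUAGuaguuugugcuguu
miR-98-5p: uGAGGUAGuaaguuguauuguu
All 9 carried the same seed, GAGGUAG, and each was 22 nt long.

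The clearest stage differences lay at the promoters of Igf2bp3 and Lin28b. Both regions were less accessible at P0, and both covered the RefSeq start of their gene. At the Igf2bp3 promoter the mean at P0 was 37.0% of that at E14.5, and at the Lin28b promoter 52.6%. The regions at the starts of Igf2bp2 and Igf1r did not pass the test. Of the 33 regions, 2 were lower and 0 higher at P0 at an adjusted p under 0.05 in edgeR's quasi-likelihood test, adjusted by Benjamini-Hochberg over all regions. Over all regions tested, 4.73% passed, 2.94% lower and 1.79% higher. At an unadjusted p under 0.05 the numbers were 7 of 33 and 18.7% of all regions. The count of 2 is thus close to the share among all regions. Among regions listed as promoters the background was lower, at 0.851% in either direction and 0.468% lower at P0, against 2 of the 19 member regions so listed (0.383% were higher, and 0 members). At an adjusted p under 0.1, 5 members passed, 4 of them lower, against 8.02% of all regions and 4.34% lower. The genes were chosen with earlier results of these data known, the Lin28b promoter among them, so these counts describe the set and are not independent evidence.

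To show what lies upstream of these starts, the 250 bases before the RefSeq start are printed for the 4 members whose own promoter was among the regions, with each match on either strand in capitals; the motifs searched were the E-box CACGTG, the CCAAT box, the GC box GGGCGG and the TATA box TATAAA (sequences from RefSeq, GRCm38.p6):
Igf2bp3, chr6:49214955-49215204, minus strand: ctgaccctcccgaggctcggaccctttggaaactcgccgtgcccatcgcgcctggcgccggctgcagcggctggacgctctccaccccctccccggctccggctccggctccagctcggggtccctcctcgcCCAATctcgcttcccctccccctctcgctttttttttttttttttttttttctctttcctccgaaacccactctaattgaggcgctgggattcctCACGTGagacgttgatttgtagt
Lin28b, chr10:45470202-45470451, minus strand: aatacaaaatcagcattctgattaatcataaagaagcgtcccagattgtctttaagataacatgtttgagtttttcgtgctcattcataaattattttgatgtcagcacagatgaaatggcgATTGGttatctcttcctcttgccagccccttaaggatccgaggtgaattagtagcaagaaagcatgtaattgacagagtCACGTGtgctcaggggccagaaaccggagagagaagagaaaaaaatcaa
Igf1r, chr7:67952007-67952256, plus strand: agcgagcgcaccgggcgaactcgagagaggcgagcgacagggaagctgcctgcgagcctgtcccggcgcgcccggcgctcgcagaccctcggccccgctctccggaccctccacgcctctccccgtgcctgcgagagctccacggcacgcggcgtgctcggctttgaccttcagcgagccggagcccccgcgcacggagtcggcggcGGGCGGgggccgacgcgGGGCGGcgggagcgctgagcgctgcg
Igf2bp2, chr16:22163300-22163549, minus strand: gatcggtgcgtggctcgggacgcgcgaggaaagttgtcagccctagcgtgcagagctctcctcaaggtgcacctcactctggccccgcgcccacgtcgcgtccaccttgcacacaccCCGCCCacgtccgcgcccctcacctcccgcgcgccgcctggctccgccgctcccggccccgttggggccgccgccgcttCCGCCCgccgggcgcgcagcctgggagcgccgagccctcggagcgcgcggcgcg
The CACGTG motif, bound by Myc and related factors, occurred once upstream of Igf2bp3 and once upstream of Lin28b. It had no match upstream of Igf1r or Igf2bp2, nor in the windows of Lin28a, Hmga2, Hmga1 and Trim71, the other members in the promoter table. Of 32817 such windows across the genome, 6.02% held it. The same 2 windows also had 1 match each to CCAAT or its reverse complement (33.8% of all windows). The Igf1r and Igf2bp2 windows had 2 matches each to GGGCGG on either strand (32.7% of all windows), and TATAAA (12.4%) occurred in none of the 4. A match says only that the letters are present.

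Base composition differed among the 4 windows. The Lin28b window was 39.2% G and C with 6 CpG, and the Igf2bp3 window 60.4% with 21. Igf1r had 77.6% with 42 CpG and Igf2bp2 77.2% with 40, against medians of 52.4% and 6 over all windows. The 2 windows whose promoters passed the test had fewer CpG than the other 2, a description over 4 genes with no test.

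Igf2bp3 encodes an RNA-binding protein of the embryo that binds and stabilises growth-related transcripts. Its promoter region (chr6:49213710-49215959) had 30.1, 32.8 and 41.0 CPM at E14.5 and 14.58, 8.32 and 15.6 at P0. CPM are counts scaled to a common library size with TMM factors, and values are always given in the order of the replicates 1, 2 and 3. The groups did not overlap, and P0 replicate 2 was the lowest library. The mean fell from 34.7 ± 5.65 to 12.8 ± 3.92 CPM (SD over 3 libraries per stage). The fitted log2 fold change was -1.41 (SE 0.24, edgeR adjusted p = 0.00449). It passed in each of the 14 alternative fits, with adjusted p from 1.1e-05 to 0.0443. Among the 14097 regions listed as promoters, 11 had a more negative log2 fold change.

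A further region (chr6:49217553-49218595), 2605 bp outside the gene and upstream of its start, was no listed promoter. It held 29.5, 29.8 and 34.8 CPM at E14.5 and 19.1, 13.3 and 25.1 at P0. The groups again did not overlap, with a log2 fold change of -0.70 (SE 0.23), but the edgeR adjusted p was 0.0962. Among the alternative fits it passed only without P0 replicate 3, the P0 library nearest to E14.5 there (edgeR adjusted p = 0.0227). The highest adjusted p was 0.358, without E14.5 replicate 3. This region was singled out after its values were seen.

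Inside Igf2bp3, a region outside the exons (chr6:49164484-49165659) lay 49882.5 bp downstream of the start by its midpoint and had the opposite sign. It held 4.98, 6.31 and 4.55 CPM at E14.5 and 11.9, 11.8 and 6.95 at P0, with no overlap. The log2 fold change of 0.93 (SE 0.30) did not pass with all libraries (edgeR adjusted p = 0.0929). Among the alternative fits it passed only without P0 replicate 3 (0.0329), and the highest adjusted p was 0.382, without P0 replicate 1. The remaining regions near Igf2bp3 were promoters of neighbours, Tra2a and 2410003K15Rik, with log2 fold changes of 0.07 and 0.01. At Igf2bp3, the promoter was thus the 1 region of 5 that passed with all libraries.

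**Figure D1:**
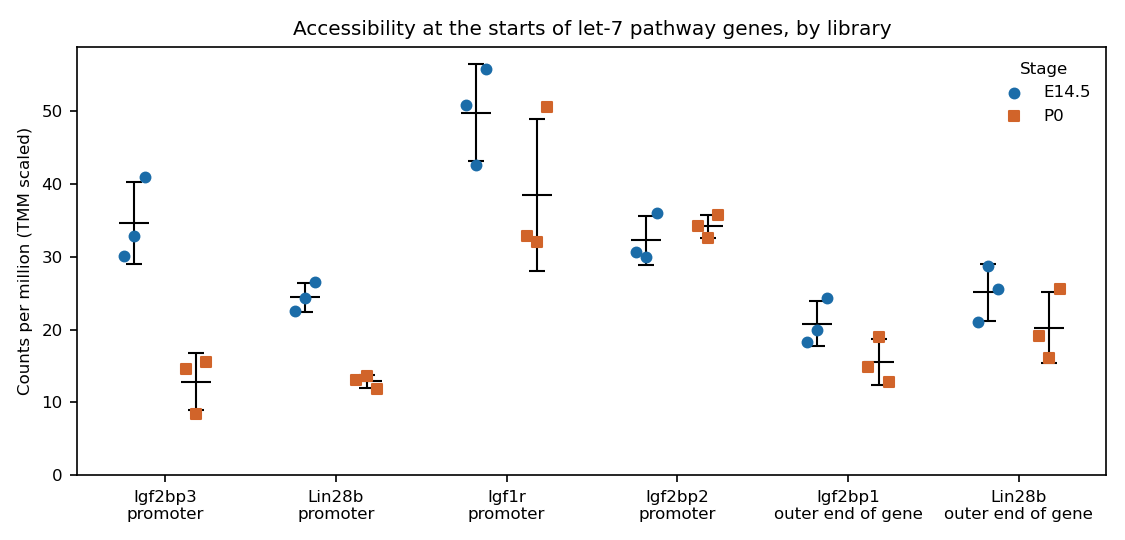
CPM (y axis, TMM scaled) in each library at 6 regions over the starts or outer ends of member genes, with E14.5 as circles and P0 as squares; horizontal lines and bars give the mean and SD of 3 libraries. At the Igf2bp3 and Lin28b promoters every P0 library lies below every E14.5 library, while the stages overlap at the other 4 regions.

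Lin28b is the paralog of Lin28a and likewise binds let-7 precursors. Its promoter region (chr10:45467808-45470665) had 22.5, 24.3 and 26.5 CPM at E14.5 and 13.1, 13.6 and 11.8 at P0. The libraries of each stage lay close together and the groups did not overlap. The mean fell from 24.5 ± 1.99 to 12.9 ± 0.918 CPM (SD over 3 libraries per stage). The fitted log2 fold change was -0.93 (SE 0.19, edgeR adjusted p = 0.0134). The call was lost without E14.5 replicate 3 (log2 fold change -0.87, adjusted p = 0.0960) and without P0 replicate 1 (-0.96, adjusted p = 0.0738), and it held in the other 12 of 14 alternatives. Of all promoter regions, 44 had a more negative log2 fold change.

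RefSeq placed the outer end of the Lin28b span further upstream, and a region there (chr10:45485387-45487161), not listed as a promoter, behaved less clearly. It had 21.0, 28.7 and 25.6 CPM at E14.5 and 19.1, 16.0 and 25.6 at P0, so the stages overlapped. The log2 fold change was -0.30 (SE 0.22, edgeR adjusted p = 0.497), with -0.17 without P0 replicate 2 and -0.53 without P0 replicate 3. Whether the 2 Lin28b regions differ in their stage effect was not tested. Of the 3 regions outside the gene, the one at chr10:45369832-45372120 had the largest difference, from 10.8, 24.7 and 17.3 CPM to 26.2, 20.4 and 21.5 (log2 fold change 0.36, SE 0.26, edgeR adjusted p = 0.496). It rested on single libraries, with 0.11 without E14.5 replicate 1, 0.69 without E14.5 replicate 2, and 0.23 when P0 replicate 1 was left out. RefSeq places its midpoint within Bves, whose promoter, also within the window, had a log2 fold change of 0.02. The other 2 regions had -0.14 and 0.02.

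**Figure D2:**
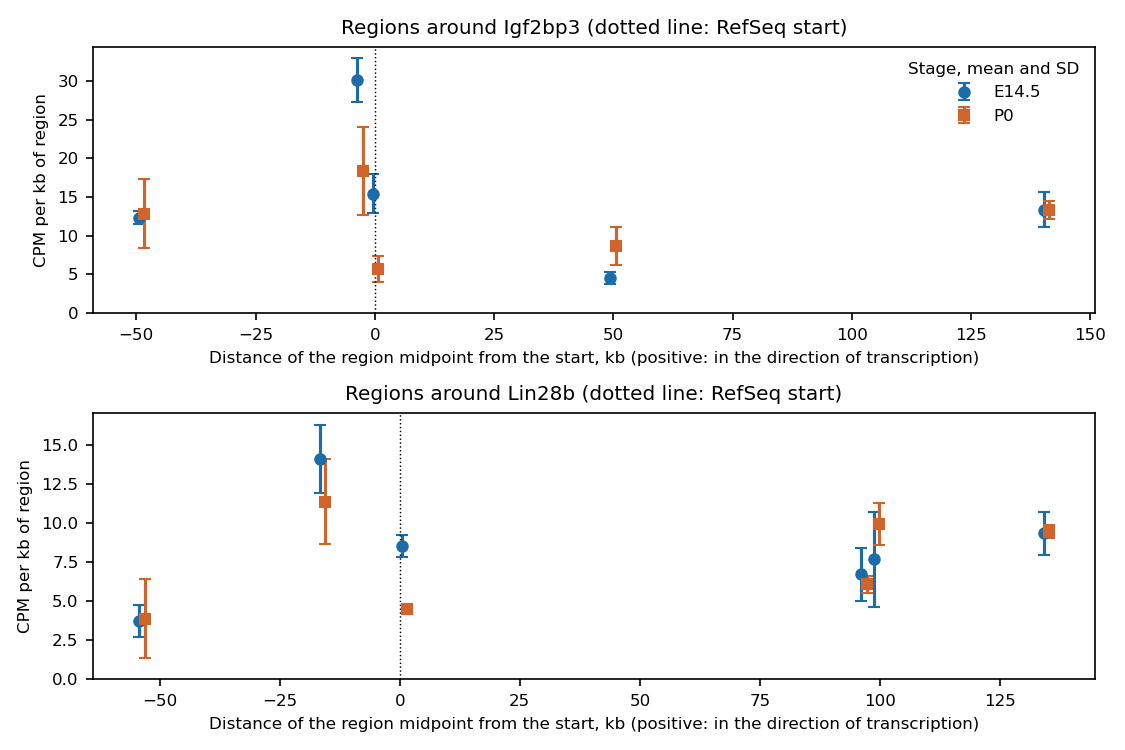
Accessibility per kb of region (y axis, CPM per kb, mean and SD of 3 libraries) against the distance of each region's midpoint from the RefSeq start (x axis, kb), for Igf2bp3 above and Lin28b below, with the stages drawn slightly apart. The regions at the dotted start lines are lower at P0 in both genes, and the flanking promoters of neighbours lie at similar levels in both stages.

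Lin28a, the other let-7 blocker, had no region over its own start in the set. Its 2 regions were promoters of neighbours: that of Hmgn2 (chr4:133966863-133969551, log2 fold change -0.12) and that of Dhdds (chr4:134000292-134001922), 2223 bp beyond the Lin28a span. The Dhdds promoter had 20.3, 16.6 and 14.8 CPM at E14.5 and 11.1, 9.53 and 10.5 at P0, with no overlap. Its log2 fold change of -0.73 (SE 0.22) did not pass (edgeR adjusted p = 0.0744), nor did it in any of 14 alternatives (0.0589 to 0.277). Dhdds encodes an enzyme of dolichol synthesis, and the region covers its RefSeq start.

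The other Igf2bp genes encode relatives of Igf2bp3 that also bind embryonic transcripts. The Igf2bp2 promoter (chr16:22161165-22164494) had 30.6, 30.0 and 36.1 CPM at E14.5 and 34.3, 32.5 and 35.8 at P0. The P0 libraries lay within the range of the E14.5 libraries, with a log2 fold change of 0.09 (SE 0.18, edgeR adjusted p = 0.855). A region inside Igf2bp2 (chr16:22124273-22125218) had 8.19, 9.02 and 5.49 CPM at E14.5 and 8.54, 9.08 and 9.00 at P0 (log2 fold change 0.22, SE 0.27, edgeR adjusted p = 0.720). Its log2 fold change was 0.04 without E14.5 replicate 3 and 0.36 without E14.5 replicate 2. Near the outer edge of the window, the promoter of Senp2 had -0.20.

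Igf2bp1 had a region over the outer end of its RefSeq span (chr11:96004660-96007921), assigned in the table as a promoter to ENSMUSG00000103376. It had 18.3, 19.9 and 24.3 CPM at E14.5 and 14.9, 18.9 and 12.8 at P0. P0 replicate 2 lay within the E14.5 range, and the log2 fold change of -0.43 (SE 0.22) did not pass (edgeR adjusted p = 0.302). Inside the gene, a region at chr11:95990026-95992768 had 16.7, 14.7 and 15.9 CPM at E14.5 and 13.0, 14.23 and 12.4 at P0. The groups did not overlap there, but the difference was small (log2 fold change -0.26, SE 0.20, edgeR adjusted p = 0.550).

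Igf1r encodes the receptor through which insulin-like growth factors drive growth. Its promoter (chr7:67950278-67953927) had 50.9, 42.7 and 55.8 CPM at E14.5 and 32.8, 32.1 and 50.6 at P0. P0 replicate 3 lay among the E14.5 libraries and the other 2 below them, with a log2 fold change of -0.36 (SE 0.22, edgeR adjusted p = 0.409). Without P0 replicate 3 it was -0.63 and still did not pass (0.0934). Of 3 regions inside the gene and outside its exons, the one at chr7:68084928-68086184 differed most, with 6.64, 9.20 and 11.3 CPM at E14.5 and 4.27, 5.15 and 7.03 at P0. The stages overlapped there, with a log2 fold change of -0.71 (SE 0.31, edgeR adjusted p = 0.217). The others had -0.21 and -0.05. The region with -0.21 (chr7:68127261-68130909) was the 1 member region that overlapped an element of the VISTA collection of enhancers tested in mouse embryos, and it overlapped a FANTOM enhancer too.

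Hmga2 and Hmga1 encode small proteins that bind AT-rich DNA and shape chromatin in embryonic cells. Neither had a region over its own start. Hmga2 had 1 region, inside the gene and outside its exons (chr10:120419906-120421570), with 11.98, 17.95 and 11.8 CPM at E14.5 and 24.2, 15.6 and 24.7 at P0. P0 replicate 2 lay below E14.5 replicate 2, and the log2 fold change of 0.63 (SE 0.24) did not pass (edgeR adjusted p = 0.164). The 1 region near Hmga1 was the promoter of its neighbour AI413582 (log2 fold change -0.27, edgeR adjusted p = 0.538).

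Trim71 encodes an RNA-binding ubiquitin ligase of early embryos, and its start too had no region in the set. It had 2 regions inside the gene. The one at chr9:114536582-114537406 had 7.95, 6.66 and 5.84 CPM at E14.5 and 6.14, 7.26 and 5.60 at P0 (log2 fold change -0.11, SE 0.28, edgeR adjusted p = 0.881), and the other had -0.06. The remaining region was listed as the promoter of Ccr4 (-0.36). Arid3a, a transcription factor that binds AT-rich DNA, had 5 regions in its window, each of them a promoter of a neighbour. Those were listed under Kiss1r, Wdr18, Abca7 and the identifiers ENSMUSG00000097854 (over the RefSeq start of Med16) and ENSMUSG00000095615. Their log2 fold changes ran from -0.44 to 0.14, with a lowest edgeR adjusted p of 0.361.

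By place, the 33 regions were 4 own promoters, 2 regions over the outer end of a member, 9 inside a member, 4 outside with no promoter listed, and 14 promoters of neighbours. The neighbours' promoters thus made up the largest class, and 0 of the 14 passed, beside 0.851% of all listed promoters, a share too low for this count to say anything of them. The median log2 fold change was -0.65 over the 4 own promoters, -0.06 over the 9 regions inside members and -0.19 over the 14 neighbours' promoters. Over all 33 it was -0.18, against 0.01 over all regions tested, and 22 of 33 were below 0, against 48.9% of all regions. Regions listed as promoters had a median of -0.10 in the whole table, with 66.0% below 0, and the 19 such members one of -0.26, with 13 below 0. Groups did not overlap in 6 members (5 lower, 1 higher at P0), against 24.2% of all regions, of which 12.4% were lower and 11.8% higher. Counts of members ranged from 34 to 641 per region and library, and the SE of a log2 fold change from 0.18 to 0.39. Changes well under 2-fold were therefore often not detectable.

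**Figure D3:**
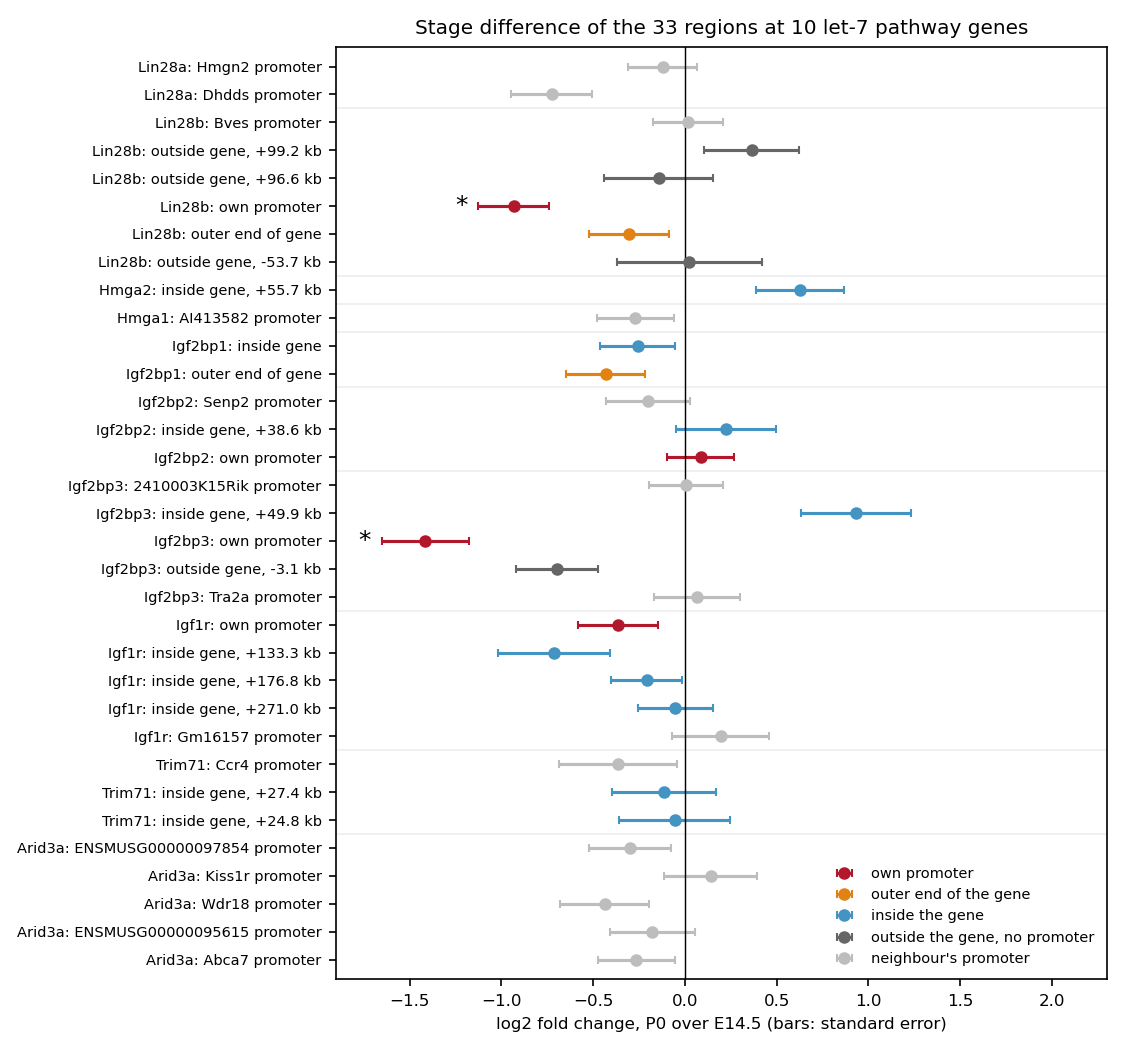
Fitted log2 fold change of P0 over E14.5 (x axis, bars give the standard error) for each of the 33 regions, grouped by gene and coloured by place. The distance from the RefSeq start is given, where known, only for regions inside a gene or outside it with no promoter. The 2 regions marked by an asterisk, the own promoters of Lin28b and Igf2bp3, pass an adjusted p of 0.05.

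Levels of the 4 own promoters were compared per kb of region. At E14.5 the levels were 15.4 ± 2.51 CPM per kb for Igf2bp3, 13.6 ± 1.82 for Igf1r, 9.68 ± 1.00 for Igf2bp2 and 8.56 ± 0.695 for Lin28b (SD, n = 3 each). Neighbours in this order overlapped for Igf2bp3 and Igf1r (13.4 to 18.2 and 11.7 to 15.3) and for Igf2bp2 and Lin28b (9.02 to 10.8 and 7.89 to 9.27), but not for Igf1r and Igf2bp2. At P0 the levels were 10.5 ± 2.87 for Igf1r, 10.3 ± 0.484 for Igf2bp2, 5.70 ± 1.74 for Igf2bp3 and 4.50 ± 0.321 for Lin28b. At P0 the libraries of Igf1r (8.79 to 13.9) and Igf2bp2 (9.77 to 10.7) overlapped, as did those of Igf2bp3 (3.70 to 6.91) and Lin28b (4.14 to 4.77), and the first pair lay above the second. Of all promoter regions, 58.2% lay below Igf2bp3 in level at E14.5 and 3.11% at P0. For Lin28b the shares were 20.6% and 0.816%, for Igf2bp2 29.1% and 37.1%, and for Igf1r 51.6% and 39.2%.

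**Figure D4:**
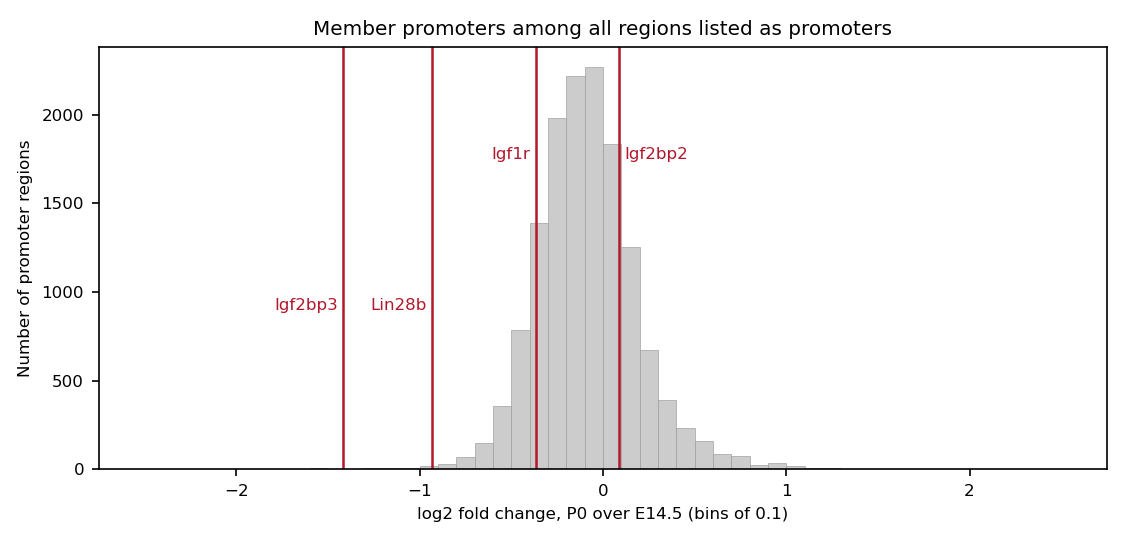
Number of regions (y axis) in bins of 0.1 of the log2 fold change of P0 over E14.5 (x axis) for all 14097 regions listed as promoters, with red lines at the own promoters of 4 members. Igf2bp3 and Lin28b lie in the lower tail, at -1.41 and -0.93, and Igf1r and Igf2bp2 within the bulk.

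Summed over all regions of a gene, neighbours' promoters included, mean accessibility was lower at P0 for 9 of the 10 genes, with Hmga2 as the exception. Of the same sums over 19330 protein-coding RefSeq genes with a region, whose windows share regions, 67.6% were lower. For Lin28a, Hmga1 and Arid3a the sum held neighbours' promoters alone. The groups did not overlap, lower at P0, for 3 of the 10 genes, against 12.5% of all these genes: Igf2bp3 (110.6 ± 12.3 CPM at E14.5 and 82.3 ± 15.3 at P0), Igf2bp1 (36.6 ± 3.11 and 28.7 ± 4.05) and Lin28a (45.2 ± 4.41 and 36.0 ± 2.70; SD, n = 3 each). Each of these 3 had p = 0.1 in a two-sided exact permutation test, the lowest that 3 libraries against 3 allow. Groups that do not overlap always give this value, so the test adds nothing to the lack of overlap. After Benjamini-Hochberg adjustment over the 10 genes it was 0.286 for each. The Igf2bp3 sum includes the promoter region described above. With total-count scaling, the groups overlapped for Igf2bp3 and Igf2bp1, and not for Lin28a. The direction for Igf2bp2, a log2 ratio of -0.04, turned with total-count scaling (0.02).

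The motif matches listed in the table were set beside those of all regions as a description. Maz matches stood in 13 of 33 members (39.4%), against 21.3% of all regions and 38.1% of promoter regions. Sall1 or Sall4, zinc finger factors of the progenitors, were listed in 10 (30.3%, against 16.8% and 26.8%), and the E2f family also in 10 (against 15.2% and 33.6%). Smad matches stood in 6 (18.2%, against 9.02% and 8.28%), forkhead matches in 8 (24.2%, against 21.0% and 15.3%) and Sox matches in 4 (12.1%, against 13.2% and 9.27%). The Igf2bp3 promoter carried Maz, Sall1 and Sall4 matches and the Lin28b promoter a Maz match.

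The wider pathway was followed in 3 lists, with regions in or within 10 kb of each gene. Of the 12 let-7 genes, 5 had such a region (Mirlet7i, Mirlet7e, Mirlet7g, Mirlet7a-1 and Mirlet7f-1), 6 regions in all, of which 0 passed in edgeR, also at an unadjusted p under 0.05 and with DESeq2 or limma-voom. With 4.73% and 18.7% of all regions passing, a count of 0 among 6 says little. The Mirlet7i promoter (chr10:122983874-122987084) had 29.7, 25.9 and 30.7 CPM at E14.5 and 22.8, 19.4 and 36.5 at P0, so the P0 libraries enclosed the E14.5 range (log2 fold change -0.12, SE 0.23, edgeR adjusted p = 0.838). The region near Mirlet7a-1 and Mirlet7f-1 had the largest difference of the 6, at -0.46 (SE 0.27, edgeR adjusted p = 0.390). It had 117.2, 53.8 and 68.1 CPM at E14.5 and 57.0, 47.5 and 69.0 at P0, so that E14.5 replicate 1 alone stood above the P0 libraries. Near Mirlet7e the 2 regions had -0.04 and -0.01, and near Mirlet7g the promoter of its neighbour Wdr82 had 0.17.

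Among 11 genes of microRNA maturation and let-7 decay, 25 regions were measured, of which 1 was higher and 0 lower at P0, and 5 had an unadjusted p under 0.05. Both counts are near the shares among all regions, 4.73% and 18.7%. Some of the 25 were listed as promoters of neighbours, among them those of Map3k12, Trmt2a, Yipf3 and Gtf2f1. The region that was higher lay inside Drosha, the nuclease that makes the first cut in microRNA precursors, and outside promoters (chr15:12918816-12920938). It had 9.85, 9.90 and 8.17 CPM at E14.5 and 20.6, 15.6 and 15.8 at P0. The groups were well apart, and the mean rose from 9.31 ± 0.98 to 17.3 ± 2.85 CPM (SD over 3 libraries per stage). The fit gave a log2 fold change of 0.90 (SE 0.22, edgeR adjusted p = 0.0330). The call was lost without E14.5 replicate 1 (log2 fold change 0.94, adjusted p = 0.0805), E14.5 replicate 3 (0.81, adjusted p = 0.176) or P0 replicate 1 (0.73, adjusted p = 0.234). The promoters of Drosha and of Dis3l2, the exonuclease that degrades tailed let-7 precursors, had log2 fold changes of 0.30 and -0.47 and did not pass (edgeR adjusted p = 0.499 and 0.266). That of Tut4, which adds the tail, had -0.06. Among 12 other let-7 targets, 35 regions held 0 calls in edgeR, with 4 at an unadjusted p under 0.05 (18.7% of all regions) and a lowest adjusted p of 0.101. Of these 35, 4 were overlapping versions of 1 Ccnd1 promoter region. Some others were listed as promoters of neighbours, such as the region at Plagl2, listed under Pofut1.

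For the series as a whole, totals in regions ran from 6492996 counts (P0 replicate 2) to 12292629 (P0 replicate 3). Replicates came from separate litters. P0 replicate 3 lay nearer to E14.5 than the other P0 libraries at several members, as given above. Of 7 nephron progenitor markers, 4 (Six2, Eya1, Osr1 and Sall1) had a listed promoter region, with 11.8 to 12.4 CPM per kb at E14.5 and 9.12 to 12.6 at P0. No listed promoter region was found for Cited1, Meox1 or Itga8, the integrin used for the enrichment. Promoter regions were also listed for 3 of 5 ureteric bud markers (15.8 to 17.97 and 14.63 to 15.9), 3 of 5 of differentiating nephrons (13.3 to 14.4 and 13.2 to 17.1), 1 of 5 of stroma (8.01 to 9.85 and 6.30 to 10.7) and 1 of 5 of endothelium (10.5 to 15.7 and 12.05 to 16.5). For the 3 red cell markers and 3 of 4 immune markers no listed promoter region was found. The other immune marker, Spi1, and the stromal marker Pdgfra could not be looked up by name. No marker promoter passed the test, and the part of other cell types in the differences was not tested.

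In the authors' deposited table, the Igf2bp3 and Lin28b promoters were the 2 member regions classed as closing, with log2 fold changes of -1.29 and -0.88 and adjusted p-values of 0.0331 and 0.0643. The authors' deposited table classed the other 31 members as stable. Over all distinct regions, the authors' deposited table classed 2.48% as closing and 2.86% as opening.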

How the data were processed

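Gene members and lists were chosen with earlier results of these data known. The deposited table gave whole-number counts per region in 6 libraries. Its genome build was mm10, per the submitters' processing notes, while the aligner, peak caller, counting rule and duplicate handling are not given in the sources used here. The authors also deposited a log2 fold change, a score (t statistic), a p-value and an adjusted p-value per region, used only where named. Each count column was tied to its library through the title, with 0 left over. Of 45489 rows, 1966 repeated a region with identical counts and were dropped.

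All 43523 regions were fitted with edgeR 4.0.16 in R 4.3.3 (TMM scaling, filterByExpr, which removed 0 regions, quasi-likelihood test, stage as the only term), with Benjamini-Hochberg adjustment and a threshold of 0.05. The fit was tested on simulated counts. An SE is the log2 fold change divided by the square root of F. CPM use TMM-scaled library sizes. Each p-value of the fit sets the stage difference against the spread between 3 libraries of pooled kidneys per stage, not between single animals. Own and neighbouring promoters are those of the table's annotation, with names from the table's own identifier pairs. An outer end is an end of the RefSeq span, since the table gives no start for some members. Of the 10 members, 8 were in the RefSeq promoter table (not Igf2bp1 or Arid3a).

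Regions named with values were each own promoter, each region past the threshold, the region with the largest absolute change among those that were no promoter at each gene, and neighbours' promoters at an unadjusted p under 0.05. The outer ends and the region upstream of Igf2bp3 were added after their values were seen. The replicate numbers did not pair the libraries, which came from different litters (correlations of deviations 0.07, -0.14 and 0.08 for numbers 1, 2 and 3). Alternatives were 2 other scalings, 2 filters, DESeq2 1.42.0, limma-voom (limma 3.58.1), a replicate block, autosomes, overlapping regions left out, each library left out, other windows and other thresholds.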

Additional observations from a re-analysis of the deposited data

How the results depend on the processing

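The 2 member regions passed under each other scaling and test, the filter of 50 counts, the autosomes and the region set without overlaps, and in the fit with the replicate block, where the count was 2 (Igf2bp3 promoter adjusted p = 0.00983, Lin28b promoter 0.0254) and no other call changed. With a threshold of 0.1, 5 member regions passed, 4 lower and 1 higher, and with 0.01 it was 1, lower. Across the fits that each left out a library, from 1 to 4 member regions passed, 1 to 3 lower and 0 to 1 higher. The 1 came with E14.5 replicate 3 or P0 replicate 1 left out and was the Igf2bp3 promoter, and the 4 came without P0 replicate 3, where the upstream and the inner Igf2bp3 regions passed too. The cause was not tested. The median over members ranged from -0.23 to -0.13 in the fits that left out a library, and was -0.11 with total-count scaling. Over the smaller set of regions within 10 kb of a member it was -0.26. In the maturation list, 0 to 1 region was higher across the fits that left out a library, with 0 without E14.5 replicate 1, E14.5 replicate 3 or P0 replicate 1. Among other let-7 targets it was 0 to 1, with 1 without E14.5 replicate 2. The sum for Igf2bp2 turned to 0.020 with total-count scaling and ran from -0.16 to 0.059 with a library left out, above 0 without E14.5 replicate 1 (0.013) or P0 replicate 2 (0.059). The Trim71 region at 114536582 turned to 0.010 without E14.5 replicate 1, over a range of -0.21 to 0.010. The fit without a filter equals the reported one, since the filter removed 0 regions, and other windows refit nothing, so neither bears on stability. Sums were recomputed only for scalings and left-out libraries. On the given strand alone, CCAAT had 0 matches upstream of Lin28b and GGGCGG 0 upstream of Igf2bp2.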

Other observations

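The table also links regions to genes through predicted enhancer contacts. Among 18697 regions with such a link to a gene named in RefSeq, 134 (0.717%) had at least 1 linked gene on their own chromosome, and among the 9 member regions with a link 0 did. The promoter column of the same table placed 10860 of 10866 regions (99.9%) on the chromosome of their gene, and the motif positions fitted the length of their region in 27102 of 27122 (99.9%). The links were therefore not used for any member, and the cause of the mismatch was not tested.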
